A study of Mus musculus with 3 samples.

Results

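The genes described here are those measured well above background on the array of wild-type (WT) long-term hematopoietic stem cells (LT-HSCs). They were chosen by their own signal on that array. A gene entered if at least 1 of its probes was flagged well above background by the scanner software, its brightest such probe stood for it, and genes were ranked by that probe's processed signal, the background-subtracted intensity in scanner units. By this rule 28074 of 37073 gene names were members, which is 75.7% of all names on the array. Because the signal chose and ordered the genes, every level below is a description and none was tested. The group holds 1 array with no replicate, so no value carries an error between mice.

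The WT array belongs to a study of the kinases Atm and p38α in stem cells, in which arrays of Atm-deleted (AtmsKO) and Atm- and p38α-deleted (Atmp38dKO) cells were also made. Per the labels, the WT cells came from bone marrow of C57BL/6J mice aged 11 weeks and were sorted as CD150+CD48-Flt3-CD34- LSK cells, LSK standing for lineage-negative, Sca-1-positive and c-Kit-positive. Per the methods, control mice carried floxed alleles without the Cre transgene and received tamoxifen like the mutants, and the sort also excluded CD41. The methods name animals of both sexes for the study as a whole. The series text names only CD34 and Flt3 for the sort and places tamoxifen and analysis at younger ages than the label does, and the number of mice pooled is not given. The array is an Agilent 1-colour design with 56604 usable probes of 60 bases.

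LT-HSCs sit at the top of the blood hierarchy. They renew themselves, give rise to every blood lineage, and in the adult marrow most of them rest outside the cell cycle, held there by contact with niche cells, by cytokines such as thrombopoietin and by inhibitors of cyclin-dependent kinases. Their identity rests on a small set of transcription factors, among them Gata2, Runx1, Tal1, Lmo2 and Lyl1, several of which also act early in single lineages.

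The probe sequence was needed to read the top of the ranking. The probes below are shown because they carry that result: leading probes built on repeats, another probe of the same gene where there is one, and 3 leading probes with no repeat. Each line gives 30 of the 60 bases, 5′ to 3′ in the sense of the transcript, and the mm9 position of the whole probe. Capitals mark the repeat or the 12-base word shared with other genes, and a line all in lower case holds neither.
Dennd4a, leading probe, chr9:64659886-64659945, plus strand: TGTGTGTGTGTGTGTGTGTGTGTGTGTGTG
Sp110, leading probe, chr1:87473677-87473736, minus strand: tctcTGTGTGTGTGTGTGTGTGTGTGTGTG
Hemgn, leading probe, chr4:46407248-46407307, minus strand: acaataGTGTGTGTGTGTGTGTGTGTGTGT
Hemgn, other probe, chr4:46407366-46407425, minus strand: catatctcttgtggtttcactgaaacactg
Junb, leading probe, chr8:87500843-87500902, minus strand: gatgtgttTGTGTGTGTGTGTttgactttt
Junb, next probe, chr8:87501881-87501940, minus strand: agggctttgcggacggttttgtcaaagccc
Itgam, leading probe, chr7:135261755-135261814, plus strand: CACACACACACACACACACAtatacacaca
Itgam, other probe, chr7:135212140-135212199, plus strand: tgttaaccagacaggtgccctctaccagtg
Csf3r, single probe, chr4:125721478-125721537, plus strand: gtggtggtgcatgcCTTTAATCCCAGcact
Siglech, leading probe, chr7:63034088-63034147, plus strand: tctgtctcAAAGAAAGAAAGAAAGAAAGAA
Ubb, leading probe, chr11:62366512-62366571, plus strand: atccagaaagagtcgaccctgcacctggtc
Kit, leading probe, chr5:76052394-76052453, plus strand: gtcaggtacttaaggggccacaccattgag
Gata2, single probe, chr6:88156835-88156894, plus strand: ctagtacccgcataagagaagaatcggcag

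Probes with a run of alternating T and G lit up almost without exception. A probe was put in a repeat class if it held a TG run of at least 12 bases, a CA run of at least 12 bases, another simple repeat of that length with a unit of 1 to 4 bases, or a 12-base word found in the probes of at least 20 gene names. The 112 probes with a TG run had a median signal of 62447, and 88.4% of them reached 10000. The 67 CA-run probes had a median of 7285, the 530 probes with another simple repeat 105, the 819 with a shared word 76.9 and the 55076 with none of these 21.5. Of the last class 0.543% reached 10000. Signal rose with the length of the run. Probes whose longest TG run was 0 to 5 bases had a median of 21.6, those with 8 to 9 bases 110, with 10 to 11 bases 1507, with 12 to 15 bases 25302 and with 24 or more 89573. All 37 probes of the longest class reached 10000. For CA runs the median was 295 at 12 to 15 bases and 42385 at 24 or more. The TG-run genes have no function in common that a list here names: Dennd4a is a membrane-traffic regulator, Sp110 a nuclear body protein, Sgsh a lysosomal sulfatase and Hs3st2 a heparan sulfate sulfotransferase. On the AtmsKO and Atmp38dKO arrays the median of the TG-run probes was 55589 and 61382.

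**Figure D1:**
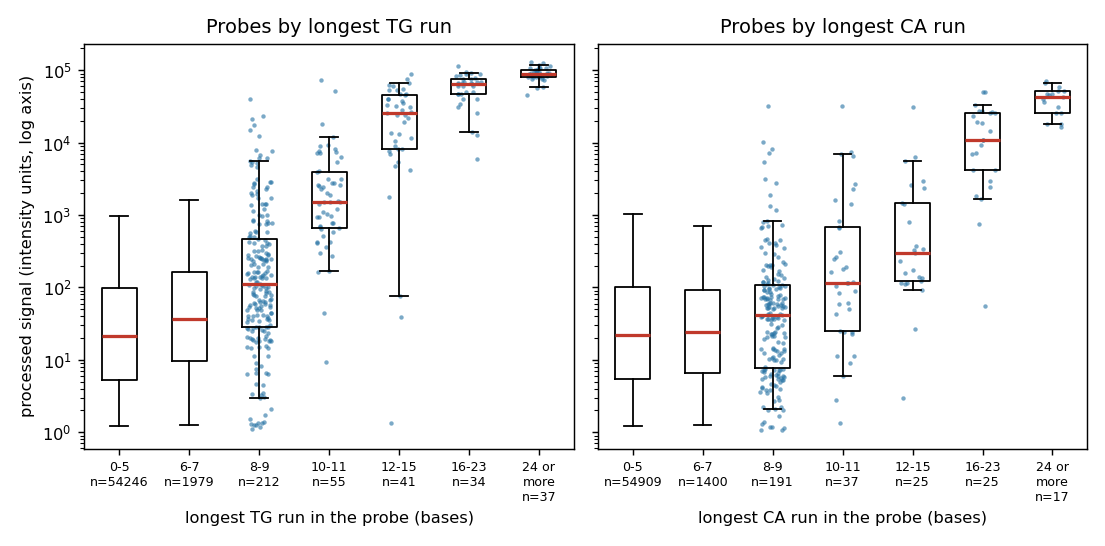
Processed signal (intensity units, log axis) of all probes on the WT array by the length of the longest TG run (left) or CA run (right) in the probe, in bases. Boxes show quartiles with the median in red, whiskers the 5th and 95th percentiles, and points the single probes in small classes. The medians climb from 21.6 to 89573 along the TG axis and from 22.2 to 42385 along the CA axis.

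The highest ranks of the transcriptome as the rule defines it were therefore occupied by repeat probes. Of the 100 highest genes, 83 were led by such a probe, 66 of them by a TG run, 6 by a CA run, 4 by another simple repeat and 7 by a shared word. Rank 1 was Rn18s, the 18S ribosomal RNA, at 131762. Ranks 2 to 9 were Dennd4a (128401), Pak4 (124226), Sp110 (118494), Sgsh (114422), Spag7 (114142), Itsn1 (108988), Cyp2u1 (108253) and Skint7 (107417), each on a TG run of 22 bases or more. Skint7 belongs to a family of genes known from skin and thymus, and its other 3 probes were not well above background, the brightest of them at 2.11. Further members of the 30 highest of this kind were Ubtf, an activator of RNA polymerase I (103657), the heparan sulfate enzyme Hs3st2 (102289), Ms4a4c (101108), Tmem239 (97480), Zcchc9 (96442), Sema4c (93962), Hemgn (93658), Fam219a (92767) and Arl6ip6 (92440). Timmdc1, a complex I assembly factor, stood at 97302 on a probe with a 12-base word shared by 29 gene names.

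**Figure D2:**
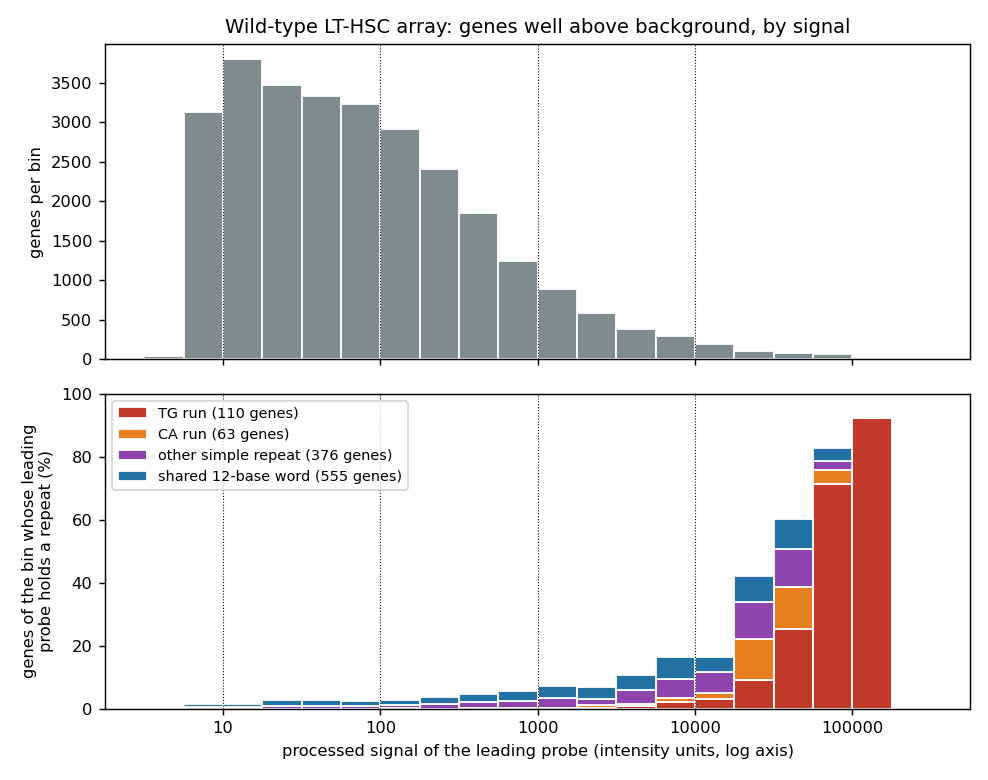
Genes well above background on the WT array by the processed signal of their leading probe (intensity units, log axis). The upper panel counts genes per bin, and the lower panel gives the percent of each bin whose leading probe holds a TG run, a CA run, another simple repeat or a 12-base word shared by at least 20 gene names. Dotted lines mark the limits of the 5 signal levels, and the repeat classes make up 42.1% of genes at 10000 or more against 1.45% of genes below 10.

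Other probes of the same genes did not share these levels. Among TG-led genes, 56 had another probe well above background with no repeat, and the leading probe was brighter by a median of 609-fold. In 55 of the 56 the gap was at least 10-fold. Sgsh read 114422 on its leading probe and 123 on the other, Spag7 114142 and 31.2, Ubtf 103657 and 385, and Hemgn 93658 and 41.0. Over all repeat classes, 105 genes at 10000 or more had such a second reading, and the median gap was 485-fold. Genes led by a probe with no repeat differed less between probes. Over 8105 of them the median gap was 2.52-fold, 39.6% lay within 2-fold and 13.7% differed by 10-fold or more. At 10000 or more, however, 43 of 106 such genes (40.6%) also differed by at least 10-fold between probes. Nelfcd, a subunit of the negative elongation factor, read 72306 and 86.5, but its leading probe holds a TG run of 10 bases, just short of the class limit of 12. Cnnm3, whose leading probe has a TG run of 5 bases, read 58773 and 31.6. Where 2 probes without a repeat lay on the same transcript, the brighter was the more 3′ one in 2366 of 3970 genes (59.6%), and in 305 of 421 (72.4%) where the gap was at least 10-fold.

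**Figure D3:**
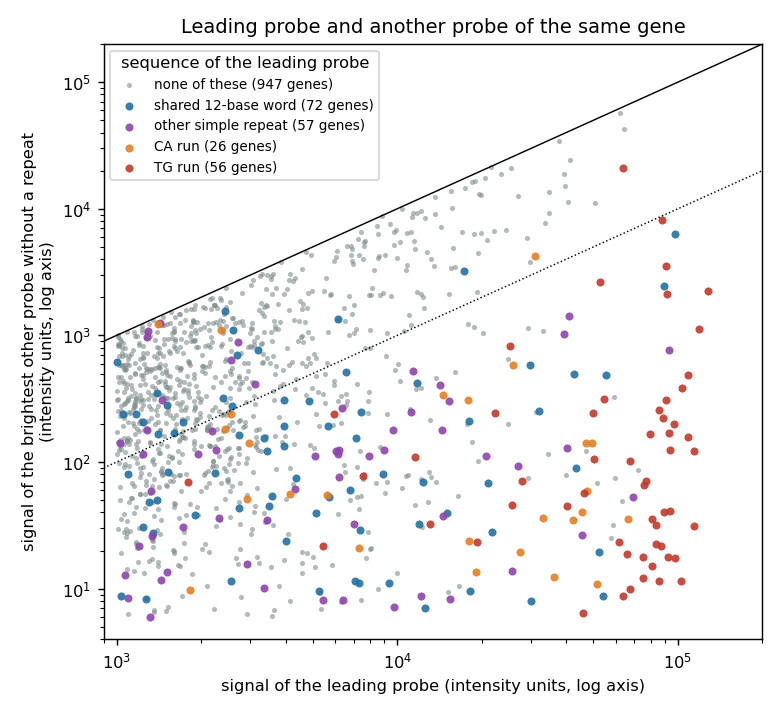
Signal of the leading probe against the brightest other probe without a repeat for genes at 1000 or more (both in intensity units, log axes), coloured by the sequence of the leading probe. The solid line marks equal signals and the dotted line a 10-fold gap, and 55 of 56 TG-led genes lie below the dotted line.

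Signal was divided into 5 levels. At 10000 or more stood 470 genes (1.67% of members), which held 61.5% of the summed signal. The next levels held 2164 genes from 1000 to 10000 (25.7% of the signal), 8413 from 100 to 1000 (10.6%), 13853 from 10 to 100 (2.08%) and 3174 below 10 (0.0996%). RefSeq protein-coding names made up 63.0%, 61.5%, 74.1%, 53.5% and 43.8% of these levels, so the share was highest from 100 to 1000 and fell below it. Measured over all 37073 names, 7.10% reached 1000 and 1.27% reached 10000. Repeat probes led 198 genes of the highest level (42.1%), 9.06% of the second, 3.96% of the third, 2.39% of the fourth and 1.45% of the lowest. The limit itself is not sharp in signal. The dimmest probe flagged well above background read 5.33 and the brightest not flagged read 7.11. Just inside lay genes such as Cyp2c29, a liver P450 enzyme, at 5.38, and just outside Smpd5 (7.04), Gm11998 (6.92), Gm10781 (6.88), C80360 (6.84) and the olfactory receptor Olfr1425 (6.77).

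All levels that follow were therefore read on probes without a repeat. That leaves 36425 gene names, of which 27410 (75.3%) were well above background, 6.20% reached 1000 and 0.749% reached 10000, with a median signal of 56.0. Probes just short of the class limits stayed in, so the remaining high ranks are not free of repeat-like sequence. Map6d1 (34703) and Wdr34 (31791) were led by probes with a word shared by 19 gene names. Foxl2 (26475) was led by a probe with a simple run of 11 bases. Probe signal depends on the probe as well as on the transcript, and the order of genes is an order of signal per probe and not of transcript number. Spots of the same probe printed at least 5 times had a median SD of 0.0535 on the log2 scale over 291 probes, which is the error of the spot alone. As repeat hybridizations of like cells, the mutant arrays placed 93 (AtmsKO) and 93 (Atmp38dKO) of the 100 highest WT genes among their own 100 highest, but the genotypes differ, so these counts mix array error with genotype.

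With repeat probes left out, the highest ranks mixed genes of protein synthesis and mitochondrial transcripts with many genes of no common list. Of the 100 highest genes, 19 encoded ribosomal proteins, 6 were ribosomal RNA, 5 lay on the mitochondrial genome, 43 were other coding genes, 6 were other RefSeq genes and 21 had no RefSeq name. Ubb, a polyubiquitin gene, read 64227 and 42445 on its 2 probes. Rps16 read 39337 and 18799, and Fau, which encodes a ubiquitin-like protein fused to a ribosomal protein, 37816 and 34023. The probes of Ubb share a 12-base word with each other, as do those of Fau, so these pairs are not independent readings. In the same region stood Gpx1, a glutathione peroxidase that removes peroxides (36284, single probe), and Gas5, the noncoding host of snoRNAs (34806 and 9221). Mitochondrial transcripts of respiration were COX1 at 51297, ND4 at 21364, ND5 at 16610, COX2 at 14166, CYTB at 11566 and ND1 at 9531. A single bright probe was common even here: of 101 genes at 10000 or more with another probe well above background that held no repeat and shared no 12-base word with the first, 17 also reached 10000 on that probe. At a limit of 1000 this held for 223 of 932 genes (23.9%) and at 100 for 2248 of 4955 (45.4%). Genes high by such a second probe included Rpl41 (24236), Rpl39 (21498), Rps16 (18799), Stmn1, a microtubule-destabilizing protein (18702), Rpl23 (17644), Rpl31 (16397) and the constitutive chaperone Hspa8 (15003). Exosc2, an exosome subunit, was the brightest coding gene on a probe without a repeat at 78597, but has a single probe.

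Ribosomal protein genes were the highest list. Of 76 on the array 75 were well above background, all 75 at 1000 or more and 40 at 10000 or more, with a median of 11389. The lowest of these were Rpl11 (1683), Rpl22 (1938) and Rpl32 (2211). Rpl37 was not well above background at 3.89 on the probe carrying its name. Translation factors followed with 37 of 37 well above background and a median of 3605, from Fau, the translationally controlled Tpt1 (29072) and the elongation factors Eef1a1 (12553 and 8412) and Eef2 (11288) down to the initiation factor subunit Eif3a (485). These lists and those below were written by hand. Their counts are read beside the 75.3% of all names well above background and the 6.20% at 1000 or more. Of heat shock and chaperone genes 31 of 31 were well above background and 22 reached 1000, with a median of 2337. Hspa8 stood at 39504, the cytosolic Hsp90ab1 at 23084, the cochaperone Dnajb1 at 21834, the inducible Hspa1a at 11889 and their transcriptional activator Hsf1 at 135. Proteasome and ubiquitin genes had 18 of 32 at 1000 or more and a median of 1163, and Psmd14 was lowest at 94.9.

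Genes of energy supply lay lower. Nuclear genes of mitochondrial respiration had a median of 951, with 25 of 53 at 1000 or more, led by the ATP synthase subunits Atp5e (11682) and Atp5a1 (5653). Glycolysis and hypoxia genes had a median of 493, with 11 of 37 at 1000 or more. Among glycolytic enzymes Gapdh read between 9417 and 1776 on 7 probes, Aldoa 8190, Ldha 4387 and Pkm 3809. The hypoxia factor Hif1a, which in stem cells is known to favour glycolysis, read 190, its partner Arnt 237, Epas1 45.4 and Pdk4 19.3. Antioxidant genes had a median of 412, and below Gpx1 stood the superoxide dismutase Sod1 (6278 and, on its other probe, 7.79), thioredoxin Txn1 (5558) and the ferritin chains Ftl1 (4107) and Fth1 (3745). Prdx4 (75.2) and the heme oxygenase Hmox1 (84.2) were lowest. Cytoskeletal genes had a median of 1621 and chromatin proteins 581, with prothymosin Ptma (18801), the replacement histones H3f3a (18749) and H3f3b (6723) and Hmgb1 (12184) at the top of the latter.

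Immediate early genes, which cells transcribe within minutes of a stimulus without new protein synthesis, were all detected. Of 35 genes 22 reached 1000 and the median was 1894, against 56.0 over all genes. Of the AP-1 factors Fosb read 60695, but its other probe, which holds a simple repeat, read 267. Jund read 33637 and 7738, Jun 3652, Fos 3323 and Atf3 440. Junb read 22205 on its TG-run probe and 243 on the next, so its place depends on which probe is read. Other members were Egr1 (25186), the mRNA-decay factor Zfp36 (12556), Klf6 (7607), Klf2 (5907), the survival gene Mcl1 (4756 and 1636), the phosphatase Dusp1 (3977) and Nr4a1 (3551). Egr2 (201), Egr3 (112) and Maff (99.5) were the lowest. The list thus spanned every level but the lowest, and the part of sorting and handling in these values was not tested.

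The genes of the sort gate were compared with the gate probe by probe. Kit, the receptor for stem cell factor and the K of LSK, read 2652, 430 and 264 on its 3 probes. Ly6a, which encodes Sca-1, read 488 and Slamf1, which encodes CD150, read 147 and 20.6. Among genes of antigens the sort excluded, Cd48 read 18 and 17.2, Flt3 79.4 and 25.8, and Itga2b, which encodes CD41, 169. Cd34 read 1694 and 551 on its 2 probes although the cells were sorted as CD34-. RNA and surface protein are different quantities, and different probes cannot be set against each other for amount. Of lineage antigens Cd8a read 7.57, Ly6g 18.4 and Cd4 484, 52.8 and 1.54 on 3 probes, the last not well above background. Itgam, which encodes CD11b of myeloid cells, ranked high at 33134 on a CA run and read 35.9 on its other probe. Ptprc, the pan-leukocyte CD45, ranged from 1384 to 13.0 over 7 probes.

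The 4 markers given for these cells did not stand on equal ground. Gata2, a transcription factor required for stem cell maintenance, read 6179 on its only probe, which holds no repeat, and Kit 2652. Hemgn, a nuclear protein of erythroid and early progenitors, read 93658 on the TG-run probe, and the probe just upstream on the same transcript read 41.0. Csf3r, the G-CSF receptor, read 24684 on its only probe, whose word is shared by 22 gene names, so no reading free of a repeat exists for it here.

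Transcription factors of stem cells were all flagged well above background and spread over 4 levels. Of 42 genes 41 had a probe without a repeat, the median was 376, 13 lay from 1000 to 10000, 19 from 100 to 1000, 7 from 10 to 100 and 2 below 10. Of the 7 factors that bind together in blood progenitors, Gata2 (6179), Lmo2 (3656 and 1193) and Lyl1 (1540) stood above 1000, and Erg (619), Fli1 (434) and Runx1 (348 once its repeat probe at 1390 is set aside) below. Tal1 was measured only on a repeat probe, at 501. Other stem cell regulators were Nfix (3163), Etv6 (3153), Myb (1899 and down to 815), Hlf (1870), Hoxa9 (1110), Meis1 (971), Mecom (221), Hoxb5 (91.4), Prdm16 (78.6) and Hoxb4 (31.6). Factors of single lineages covered the same range, from the erythroid and megakaryocyte genes Zfpm1 (1908), Nfe2 (1240) and Gata1 (513) and the myeloid genes Spi1 (376) and Cebpa (147) down to the B cell gene Ebf1 (6.90) and the monocyte and dendritic cell gene Irf8 (6.17). Several spread widely over probes, such as Nfix with a dimmest probe at 12.7 and Zbtb20 at 639 and 1.33. The Ebf1 and Irf8 values lay below the brightest probe not flagged, at 7.11.

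Noncoding RNA genes included Gas5, Rmrp (3562), the X inactivation RNA Xist (2884), Snhg1 (1583), the miR-142 host Mir142hg (967) and the telomerase RNA Terc (164), with a median of 314 over 22 genes. The methods name both sexes for the study but not the sex of the mice behind this array.

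Reporter and self-renewal genes of LT-HSCs had a median of 302, and 36 of 36 were well above background against 75.3% of all names. Genes at 1000 or more included Rgs1, a regulator of G protein signaling (5191), Msi2, an RNA-binding protein that supports self-renewal (4111 but 3.62 on its dimmest probe), Ifitm3 (3860), the niche factor Angpt1 (3159), the tetraspanin Cd81 (2219 and 1727), Ifitm1 (2138), Krt18 (1183) and Txnip (1039 and 899). Surface and reporter genes of common sorting schemes lay lower. Procr, which encodes CD201, read 546, Esam 217, Fgd5 198 and 15.3, Ctnnal1 114 and 56.5, Vwf 102, and Gprc5c 6.63. The Gprc5c value lay below the brightest probe not flagged, at 7.11. Of imprinted genes 18 of 21 were well above background, led by Gnas (3257), the growth regulator Plagl1 (999) and Ndn (255), with Igf2 at 7.61 and with Peg3 (3.26), Slc38a4 (3.41) and Dcn (4.60) not well above background.

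Genes of the cell cycle were read as replication and mitosis genes on one side and inhibitors and G1 factors on the other. All 57 replication and mitosis genes were well above background, against 75.3% of all names. Their median was 266, and 10 of them stood at 1000 or more. The sliding clamp Pcna stood at 10928, the helicase subunits Mcm7 at 2817 and 1202, Mcm3 at 2721, Mcm4 at 2662 and Mcm6 at 1344 once its shared-word probe (6160) is set aside, and, among mitotic genes, Birc5 at 3433 and Mki67, which encodes Ki67, at 1596. Other mitotic genes included Top2a at 581, Plk1 at 184, Ccnb1 at 140, Cdk1 at 71.1 and Foxm1 at 60.7, and the G1/S cyclins Ccne1 (33.1) and Ccne2 (23.4) were lowest. Of the CDK inhibitors Cdkn2d read 2926, Cdkn1b, which encodes p27, 511 and 39.5 on its extreme probes, Cdkn1a, which encodes p21, 213, Cdkn1c, which encodes p57 and is known for holding HSCs at rest, 188, Cdkn2c 177, Cdkn2a 8.16 and Cdkn2b 7.25. The pocket protein genes included Rbl1 (145) and Rb1 (66.4), and Cdk4 (2384), Ccnd2 (918) and Cdk6 (849) were the highest G1 factors. RNA levels of a pooled sample do not give the share of cycling cells.

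Receptors were read before their ligands. Of 35 cytokine receptor genes 34 were well above background, Il7r of lymphoid progenitors being the exception at 4.09. The median was 181 over the 33 genes well above background on a probe without a repeat. The interferon receptor chain Ifnar1 read 10572 but 82.8 on its dimmest probe, the common gamma chain Il2rg 3037, Kit 2652, Igf1r 2531, the macrophage colony-stimulating factor receptor Csf1r 2530 and 59.1, and the TNF receptor Tnfrsf1b 2048 and 72.0. Ifnar2 (442), Ifngr2 (305), Ifngr1 (290), Tnfrsf1a (207) and Tgfbr1 (131) lay lower, and Il18r1 (6.51) and Il10ra (5.57) were close to the limit. Il4ra and Bmpr2 were repeat cases, at 1797 on a TG run against 70.0 and at 2561 on a CA run against 240. Of 38 ligand genes 27 (71.1%) were detected, near the 75.3% of all names, with a median of 51.3. Angpt1, Pf4, the platelet chemokine (1020), Pdgfb (992), Vegfa (641) and Tgfb1 (294) led, Tnf read 51.3, Thpo 51.2, Kitl 7.99 and Epo 8.33, and Il6 (2.81), Il1a (1.69), Csf2 (4.70), Csf3 (2.36), Cxcl10 (3.13) and Ifnb1 (5.30) were among the 11 not well above background. Of homing and adhesion genes 24 of 24 were well above background against 75.7% of all names, 23 of them on a probe without a repeat. Cxcr4, the receptor for the niche chemokine, read 2450 and 648, Itgb1 1595 and Itga6 1084.

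Interferon-stimulated genes had a median of 129 against 56.0 over all genes, and 3 of 40 reached 1000, near the 6.20% of all names, namely Ifitm3 (3860), Trim25 (3502, its TG-run probe at 90505 set aside) and Ifitm1 (2138). Mx1 (11.2), Oasl1 (11.4) and Usp18 (12.8) were lowest and Gbp6 was not well above background. Antigen presentation genes lay higher, at a median of 641, through the class I genes H2-K1 (16116 and 3494), H2-Q4 (11702) and H2-D1 (6624) and their light chain B2m (9160 and 69.0), whereas the class II gene H2-Eb1 (35.2) and the class II activator Ciita (36.1) were lowest. H2 genes are near-identical copies, and probes may share their transcripts. Of the kinases the study deleted in its mutants, Atm read 88.8 and 87.0 on its extreme probes and Mapk14, which encodes p38α, 469 and 295, whereas the other p38 genes Mapk13 (38.7), Mapk12 (22.9) and Mapk11 (13.0) stood below the median of all genes. Over the 37 genes of the Atm and p38 pathways the median was 163, with the p38-activated kinase Mknk2 (2083), the adaptor Tab2 (1600), Trp53 (1215), H2afx (1190) and the p38 activator Map2k3 (1091) at 1000 or more.

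**Figure D4:**
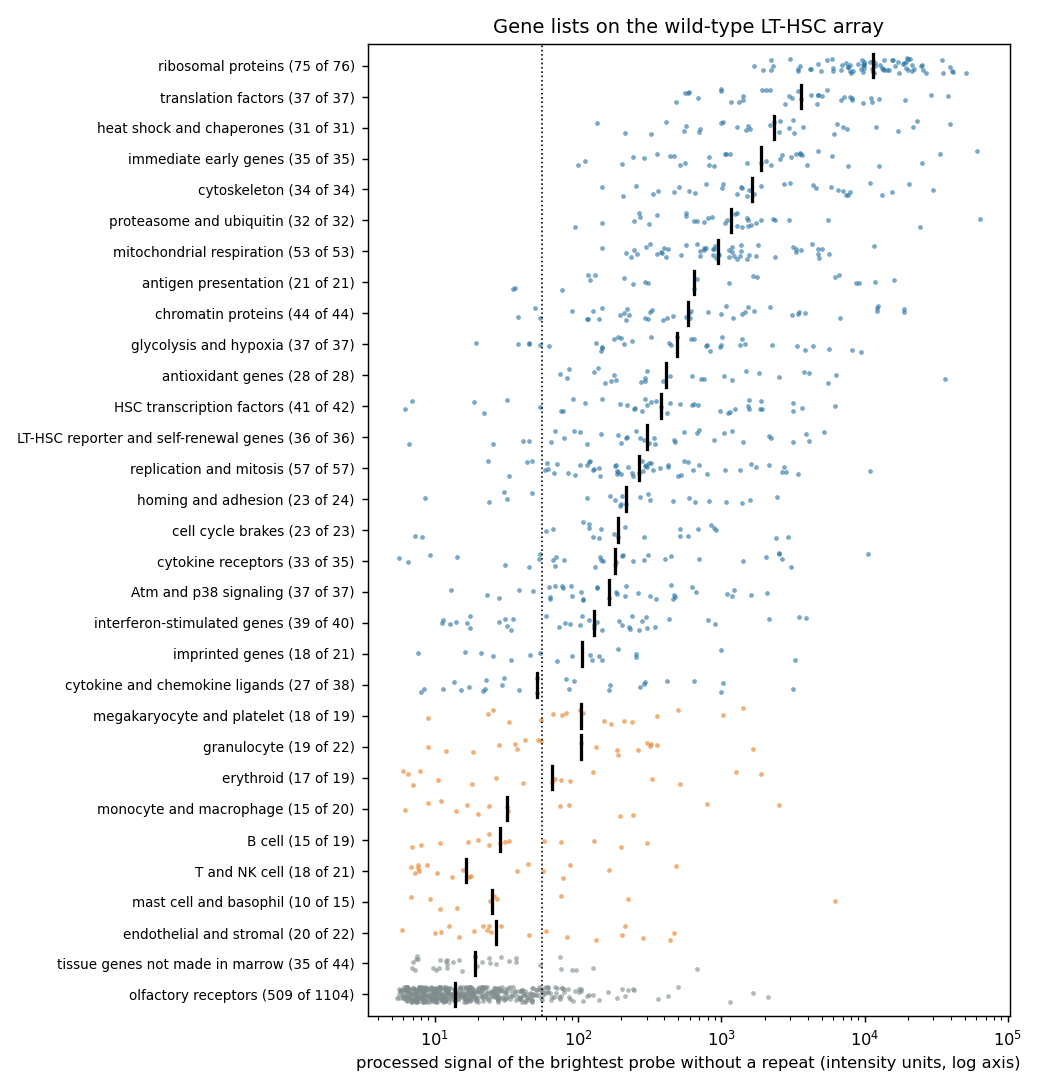
Signal of the brightest probe without a repeat (intensity units, log axis) for each gene well above background, by gene list, with the count well above background of the list's genes on the array in parentheses. Blue points are program lists, orange points markers of other cell types and grey points genes of tissues outside marrow, bars mark list medians, and the dotted line marks the median of all genes at 56.0. Medians run from 11389 for ribosomal proteins to 13.8 for olfactory receptors.

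A yardstick for low signal came from genes that marrow is not known to use. Of 1104 olfactory receptor names 517 (46.8%) were well above background, 509 of them on a probe without a repeat, with a median of 13.8. Of 260 vomeronasal receptor names 101 were well above background, with a median of 14.2. Against 75.7% of all names the share was lower in both families (38.8% for the latter), yet many of their members carried the flag, and 3 olfactory receptors reached 1000, Olfr571 (2106), Olfr744 (1670) and Olfr1410 (1139), each on 1 probe. Of 44 liver, muscle, brain, pancreas, eye, gonad and skin genes 36 were well above background, and 35 on a probe without a repeat, with a median of 19.1. Their share of 81.8% was higher than the 75.7% of all names. A high share well above background, as given for several lists above, therefore does not by itself show that marrow uses the genes. Snap25, a synaptic gene, ranked at 18870 on a CA run, and its other 2 probes were not well above background, the dimmer at 2.81. The next was Mbp at 674, followed by Gcg (126), and Alb (4.83), Ttr (4.65) and Neurod1 (1.23) were not well above background. The 95th percentile of those well above background on a probe without a repeat was 85.7 for the olfactory receptors and 105 for the tissue genes. Values below 105 therefore lay within the range of genes that marrow is not known to use. Among the genes above, these included Hoxb5, Hoxb4, Prdm16, Vwf, Atm, Mapk11, Mapk12, Mapk13, Flt3, Cdk1, Foxm1, Rb1, Tnf, H2-Eb1 and Ciita. A value over 105 is not outside that range either, since Mbp read 674 and Olfr571 2106.

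Markers of mature cells mostly fell in the same range. For B cells 15 of 19 markers were well above background with a median of 28.5 and a highest value of 304, and the defining genes read Pax5 304, Ms4a1 200, Cd79b 57.3, Vpreb1 32.7 and Cd79a 24, while Rag1 (1.27) and Rag2 (4.64) were not well above background. Cd22 ranked at 1724 on a simple repeat and read 30.7 otherwise. For T and NK cells the median was 16.4, with Lck at 87.1, Cd3e at 77.8, Cd3d at 17.9, Klrb1c at 15.6, Ncr1 at 7.25 and Cd3g at 4.28, not well above background. Dendritic cell genes other than Flt3 read between 10.8 (Ccr9) and 6.07 (Clec9a), and Siglech read 3238 on a simple repeat while its other 2 probes were not well above background, the dimmer at 4.88. Mast cell and basophil genes other than Gata2 reached 224 (Tpsb2), with Cma1 at 27.2, Cpa3 at 24.2 and Prss34 at 6.79, and with Fcer1a, Mcpt8 and Ms4a2 not well above background. Endothelial and stromal genes had a median of 26.7, with Tie1 (467), which HSCs also express, and Sparc (440) highest, Emcn at 203, Pecam1 at 134, Col1a2 at 83.5, Col1a1 at 14.7, Kdr at 5.88 and Cdh5 at 3.13, not well above background.

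Myeloid, erythroid and platelet markers reached further up. Granulocyte markers had a median of 105 over 19 of 22, with the calprotectin chains S100a9 at 1660 and S100a8 at 320, Lcn2 at 354, Prtn3 at 320, Mpo at 305 and 43.2, Camp at 263, Ngp at 132, Ltf at 54.9, Ctsg at 52.8 and Elane at 42.4. Monocyte markers had a median of 31.6, with Csf1r at 2530, Ly6c2 at 792, Cd68 at 196, Adgre1 at 20.1, and Ccr2 and Cx3cr1 not well above background. Of erythroid genes the defining globin gene Hba-a1 read 88.2, Klf1 76.1, Hbb-b2 7.88, Hbb-b1 7.03 and Alas2 6.50, and the carbonic anhydrase Car2 (1879) and Ermap (1256) were highest. Megakaryocyte and platelet markers had a median of 105, with Pf4 at 1020, Itgb3 at 501, Gp1bb at 354, Gp9 at 108, Gp1ba at 54.8 and Ppbp at 8.91. Low RNA in all sorted cells and higher RNA in a few of them cannot be told apart in a pooled sample, and the part of other cells in these values was not tested.

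Promoter sequence was the one feature examined that the ranking did not use. The promoters below are shown because they span the signal range. Each line gives the 60 bases before the RefSeq start on GRCm38.p6, with CG pairs in capitals.
Ubb, chr11:62551111-62551170, plus strand: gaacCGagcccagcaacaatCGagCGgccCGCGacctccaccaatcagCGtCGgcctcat
Rps16, chr7:28350629-28350688, plus strand: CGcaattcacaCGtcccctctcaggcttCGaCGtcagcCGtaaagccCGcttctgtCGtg
Gata2, chr6:88193831-88193890, plus strand: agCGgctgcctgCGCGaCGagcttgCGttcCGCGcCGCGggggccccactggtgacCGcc
Olfr571, chr7:102909838-102909897, minus strand: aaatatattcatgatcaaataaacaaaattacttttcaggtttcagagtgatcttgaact
Cd8a, chr6:71373367-71373426, plus strand: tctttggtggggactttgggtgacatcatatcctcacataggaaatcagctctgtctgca

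The CpG ratio, the number of CG pairs over that foreseen from the counts of C and G, was taken over 300 bases (250 before to 50 after the start) and averaged over the promoters of a gene. For the promoter shown alone it was 1.14 for Ubb, 0.857 for Rps16, 0.900 for Gata2, 0.198 for Cd8a and 0.0845 for Olfr571. Ubb and Gata2 have 2 promoters each, so their gene averages may differ from these values. A ratio of 0.6 or more was found in 72.6% of the 124 genes with a promoter at 10000 or more, in 73.9% of 1037 from 1000 to 10000, in 70.6% of 5222 from 100 to 1000, in 42.9% of 6996 from 10 to 100, in 22.3% of 1496 below 10 and in 17.9% of 4226 not well above background. The share thus stayed near the same height above 100 and fell below it. Words were searched on both strands. For each gene the share of its promoters with the word was taken, and the mean of these shares over genes is given. The share in all 32851 promoters of the table, which counts promoters and not genes, stands beside each word. GGGCGG, the GC box (35.7% of all promoters), had mean shares of 58.3%, 65.3% and 62.4% in the 3 highest levels and of 22.3% in genes not well above background. CCGGAAG, the core bound by Ets factors (8.86% of all promoters), fell from 19.4% to 3.45% between the highest level and genes not well above background. TATAAA (13.6% of all promoters) ran differently, from 16.4% at the top to 7.35% at 100 to 1000 and back to 20.5% in genes not well above background. CCAAT (37.4% of all promoters) had a mean share of 47.7% in the highest level and of 37.7% to 39.6% in the lower levels. A word match is a description of the sequence and shows no binding.

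**Figure D5:**
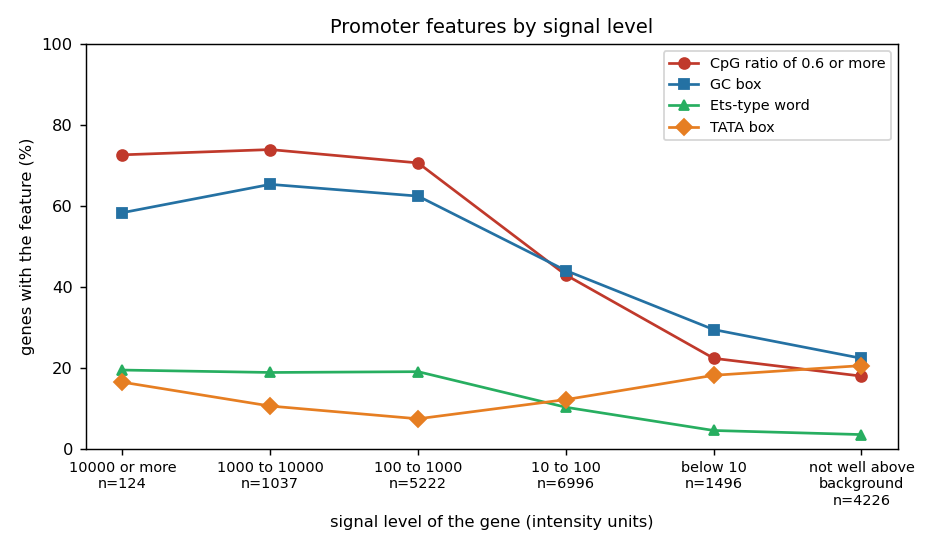
Promoter features (y axis, percent) by signal level on probes without a repeat (x axis, intensity units, n genes with a promoter). The CpG ratio line gives the percent of genes, and the word lines give the mean share of a gene's promoters with the word. The CpG ratio line runs from 72.6% at 10000 or more to 17.9% for genes not well above background, and the TATA box line is lowest, at 7.35%, from 100 to 1000.

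Promoter features were also read by list, with words again as mean shares of a gene's promoters. Over all RefSeq genes with a promoter, 35.5% had a CpG ratio of 0.6 or more. Mean shares over those genes were 9.07% for CCGGAAG, 14.2% for TATAAA, 35.6% for GGGCGG and 37.8% for CCAAT. In ribosomal protein genes the share of CCGGAAG was 39.3%, and 87.5% of these genes had a CpG ratio of 0.6 or more. All translation factor genes with a promoter had such a ratio. Immediate early genes had shares of 24.1% for TATAAA and 80.4% for GGGCGG, and heat shock and chaperone genes of 94.0% for GGGCGG. For CCAAT the share was 84.4% in antigen presentation genes and 73.9% in replication and mitosis genes. Of 20 granulocyte genes with a promoter none had a CpG ratio of 0.6 or more, and of 920 olfactory receptor genes 0.435% did. Lists of 16 to 56 genes with a promoter give coarse shares.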

How the data were processed

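Gene expression was measured in RNA of sorted WT LT-HSCs on 1 Agilent array. The deposited values are spot intensities from Agilent Feature Extraction 11.5.1.1, background-subtracted and spatially detrended, and per the file headers probe positions are on mm9. The authors also deposited log2 values, used only as an alternative. Control spots and 57 outlier spots were left out, spots of a probe were averaged (a probe was well above background if over 50% of its spots were), and a gene took its brightest probe well above background. Names are those of the array, 24740 of 37073 of which matched RefSeq. Promoters came from RefSeq (GRCm38.p6). Members and gene lists were chosen with earlier results of these data known, and the repeat classes after seeing the data. Genes named are the 30 highest with a RefSeq name, sort gate and marker genes, the top, lowest and undetected members of lists, and those nearest the limit, with others chosen after their values were seen. Scripts used Python 3.11.15, pandas 2.3.3 and R 4.3.3 with limma 3.58.1 (normexp), and were checked on simulated data. No test was run, since each group holds 1 array, and this limits the precision. The results of some named genes are not reported here.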

Additional observations from a re-analysis of the deposited data

How the results depend on the processing

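There were 10 other ways of processing, 1 of them added after seeing the data. Of 360 counts of list members at 1000 or more over 36 lists, 326 stayed within 1.5 times of the reported count, with the lowest probe of a gene moving most (17 of 36 stayed). With normexp background correction the level from 100 to 1000 held 12950 genes and that below 10 held 0, which the offset of 50 gives by construction. Below 10 lay 123 genes with the mean signal minus local background, 9035 with the softer flag and 0 with a stricter limit of 10. With the median probe of a gene 66 of the 100 highest genes were kept. With the lowest probe 40 were kept, and the levels held 267 genes at 10000 or more, 1343 from 1000 to 10000, 5513 from 100 to 1000 and 4775 below 10. With repeat probes left out 18 of the 100 were kept and 273 genes stood at 10000 or more. The share of genes at 1000 or more with a CpG ratio of 0.6 or more, 70.1% (95% exact interval 67.6 to 72.5, counting error only), was 67.4% with the median probe, 73.7% without repeat probes and 69.9% in the highest of 10 equal rank groups. The protein part of the feature comparison was not run, since no protein table was used. No paired analysis was possible because the array has no replicate, and for the same reason none could be left out. Limits are that signal per probe is no transcript count, that a probe can read other transcripts, and that near the background a gene's place rests on few intensity units.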
